A study of Mus musculus with 15 samples.

Results

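The 10 genes described here, Fos, Fosb, Jun, Junb, Egr1, Nr4a1, Zfp36, Ier2, Dusp1 and Atf3, are immediate-early transcription factors and the feedback genes that are switched on with them. They were chosen by gene symbol, and all 10 were found among the 16886 genes of the deposited gene table. All 10 also passed the filter on low counts, as did 12198 genes in all.

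The libraries were made from total RNA of mouse bone macrophages that had been kept in culture for 14 days in the presence of M-CSF at 20 ng/ml. M-CSF is needed for macrophages to survive and multiply. Of the 15 libraries, 5 came from VLDLR knockout cells (VLDLR_KO), 5 from ROBO4 knockout cells (ROBO4_KO) and 5 from wild-type cells (WT). VLDLR is a lipoprotein receptor and ROBO4 a receptor of the roundabout family. The labels give strain C57BL6J, tissue bone and M-CSF treatment for all 3 genotypes, and they do not give the age of the mice, the type of knockout allele or whether a library holds 1 animal. The sample codes have a digit either after or before the letter B, and each genotype holds both forms. The digit stands after the letter in 3 VLDLR_KO, 3 ROBO4_KO and 2 WT libraries and before it in 2 VLDLR_KO, 2 ROBO4_KO and 3 WT libraries, and the labels do not say what this means. These sets are called digit-after and digit-before libraries here, and genotypes were compared within each of them.

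Immediate-early genes are transcribed within minutes of a signal, without new protein synthesis, when mitogen-activated protein (MAP) kinases activate factors that already sit on their promoters, such as serum response factor, its Elk partners and CREB. Their messages are short-lived. Fos and Jun proteins pair to form the factor AP-1, while Dusp1 and Zfp36 act as brakes, the Dusp1 protein by removing phosphate from MAP kinases and the Zfp36 protein by marking AU-rich messages for decay. In macrophages these genes are known to respond to growth factors and to microbial products.

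In the digit-after libraries 9 of the 10 genes were called lower in VLDLR_KO than in WT at an adjusted p under 0.05, where 13.4% of all tested genes were called in either direction and 7.43% were called lower. The same count, 9 of 10 and all lower, was obtained for ROBO4_KO against WT in the digit-after libraries, with 1.59% of all tested genes called and 1.22% called lower. Both comparisons share the same 2 WT libraries, and these 2 libraries held more of 9 of the messages than any of the other 13. The gap was wide for each of the 9 but Jun, at 195 and 217 CPM against at most 133 CPM. In the digit-before libraries 8 genes were called between VLDLR_KO and WT, 6 lower and 2 higher, beside 33.2% of all tested genes (15.6% lower and 17.6% higher). DESeq2 called all 10 there, with Zfp36 and Atf3 among the 8 it called lower. Between ROBO4_KO and WT in the digit-before libraries 0 of the 10 genes were called by edgeR, beside 0.328% of all tested genes. There, 0 of the 10 had an unadjusted p under 0.05, against 4.8% of all tested genes, and DESeq2 likewise called 0. In total RNA of a culture, fewer cells of a type and less RNA per cell cannot be told apart.

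The library totals ranged from 18132866 to 19005966 estimated counts, so depth differed little. Nothing in the labels says that replicates came from separate animals or cultures, and p-values measure the spread between these samples only. The targeted genes were a weak check of the labels. Vldlr had 1 to 9 estimated counts in the VLDLR_KO libraries, against 5 to 36 in the WT libraries. Robo4 had 0 counts in all 5 ROBO4_KO libraries, against 0 to 4 in the WT libraries. All 11 macrophage markers looked at, among them Csf1r and Adgre1, were present in every library, with a summed level between 33630 and 58330 CPM (estimated counts normalised to the library total, with TMM factors). Summed levels stayed between 0.103 and 16.2 CPM for 8 of 9 neutrophil markers found in the table and between 0.154 and 1.66 CPM for 6 B cell markers.

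**Figure D1:**
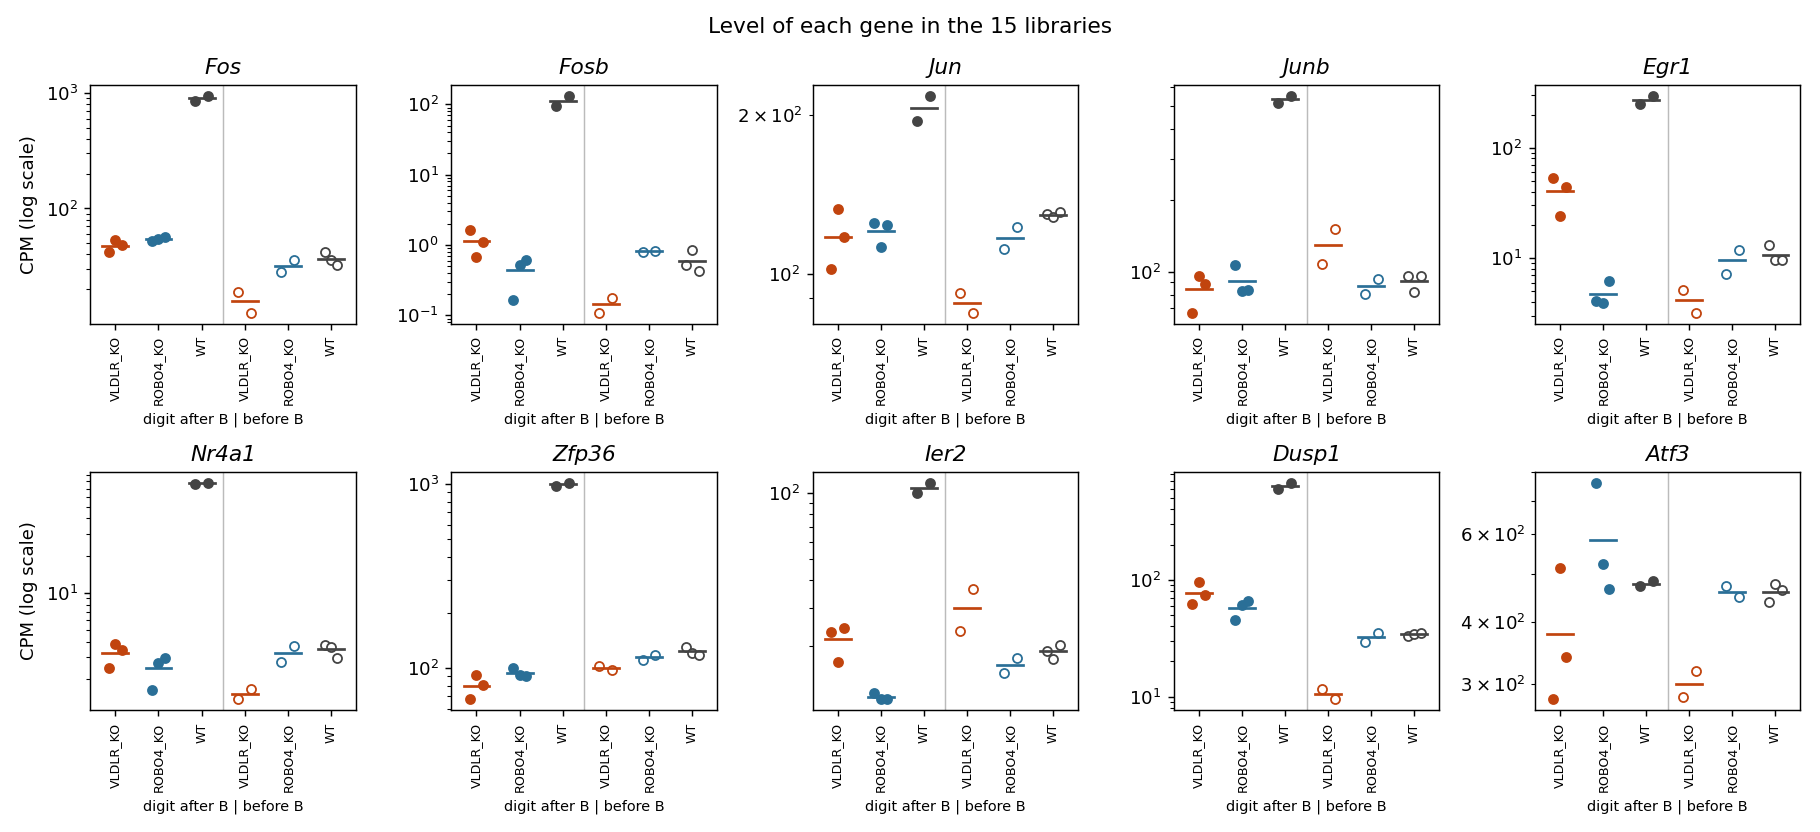
Level of each of the 10 genes in every library, in CPM on a log axis, with VLDLR_KO left of ROBO4_KO and WT; filled points are digit-after and open points digit-before libraries, and each line is the mean of its set. The 2 digit-after WT libraries stand alone at the top for 9 genes, while Atf3 lies between 279.7 and 762 CPM in all sets.

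Because most of the 10 genes were high together in the same libraries, the bases just upstream of their starts are shown for 5 of them. Fos, Nr4a1, Zfp36 and Dusp1 were among the genes with the steepest differences, and Atf3 is shown because it did not move with them. Each sequence is the 250 bases before the start that the RefSeq promoter table uses for the gene on GRCm38.p6, read 5′ to 3′ on the strand of the gene. For Nr4a1 that start lies inside the RefSeq span of the gene, which begins at 101253902, and for Fosb the searched bases overlap the end of its span at 19310118. Capitals mark matches to the cyclic AMP response element TGACGTCA (the site of CREB and ATF factors), to its first 5 bases TGACG, to the EGR site GCGGGGGCG or to the CArG box of serum response factor, on either strand.
Fos (chr12:85473640-85473889, + strand): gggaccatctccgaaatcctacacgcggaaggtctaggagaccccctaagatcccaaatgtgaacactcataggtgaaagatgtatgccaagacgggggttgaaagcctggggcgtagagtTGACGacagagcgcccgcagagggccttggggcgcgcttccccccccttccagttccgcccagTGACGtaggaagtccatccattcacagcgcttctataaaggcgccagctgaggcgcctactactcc
Nr4a1 (chr15:101266596-101266845, + strand): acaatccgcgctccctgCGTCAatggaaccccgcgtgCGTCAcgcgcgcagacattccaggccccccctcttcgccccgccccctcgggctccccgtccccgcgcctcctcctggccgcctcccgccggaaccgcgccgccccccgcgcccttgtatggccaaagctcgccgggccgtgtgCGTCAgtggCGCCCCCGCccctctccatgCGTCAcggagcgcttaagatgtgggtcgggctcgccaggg
Zfp36 (chr7:28379229-28379478, - strand): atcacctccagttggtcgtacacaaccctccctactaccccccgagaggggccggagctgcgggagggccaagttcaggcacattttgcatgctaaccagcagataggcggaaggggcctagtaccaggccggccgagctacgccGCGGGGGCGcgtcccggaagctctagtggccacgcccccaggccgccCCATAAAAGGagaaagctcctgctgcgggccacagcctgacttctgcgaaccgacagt
Dusp1 (chr17:26508473-26508722, - strand): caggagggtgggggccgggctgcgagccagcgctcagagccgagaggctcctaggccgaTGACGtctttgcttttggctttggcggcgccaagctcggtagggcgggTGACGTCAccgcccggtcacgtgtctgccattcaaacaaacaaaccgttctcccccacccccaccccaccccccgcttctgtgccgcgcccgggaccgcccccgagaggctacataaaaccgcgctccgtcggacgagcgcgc
Atf3 (chr1:191183334-191183583, - strand): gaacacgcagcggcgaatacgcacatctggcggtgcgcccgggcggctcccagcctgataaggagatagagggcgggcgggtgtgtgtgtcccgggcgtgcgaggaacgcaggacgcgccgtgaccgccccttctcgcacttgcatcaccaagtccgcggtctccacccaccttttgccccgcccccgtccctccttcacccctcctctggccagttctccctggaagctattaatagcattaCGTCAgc
The search covered the promoters of 8 of the 10 genes. Those of Egr1 and Ier2 were not searched, so the counts below say nothing about them. The short element TGACG was found in 6 of these 8 promoters, against 17.8% of the 32851 mouse promoters in the table. Nr4a1 held it 4 times, and in Dusp1 the full element spans 143 to 136 bases upstream and contains the short one on both strands. The full element was present in 1 of the 8 promoters, against 1.55% of all promoters. The EGR site was present in 3 of them, Fosb, Nr4a1 and Zfp36, against 2.57% of all promoters. Of the 8, Zfp36 alone held a CArG box, which 1.47% of all promoters hold. The AP-1 site TGANTCA was present in 0 of the 8 promoters, against 6.75% of all promoters. A match describes letters in the 250 bases searched and is not evidence of a bound factor.

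**Figure D2:**
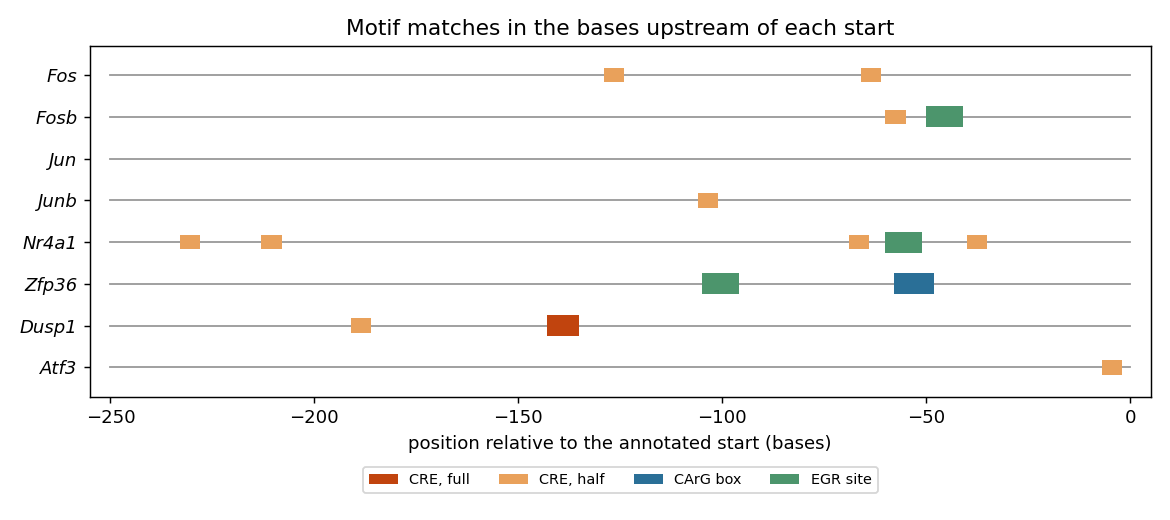
Positions of the motif matches in the 250 bases upstream of the annotated start of the 8 genes searched. The horizontal axis gives bases before the start. The short form of the cyclic AMP response element recurs in 6 of the 8 genes, and Jun holds 0 matches to the motifs drawn.

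Fos, the founding partner in AP-1, stood at 41.9, 53.1 and 48.2 CPM in digit-after VLDLR_KO libraries and 52.8, 54.4 and 56.2 CPM in digit-after ROBO4_KO libraries, against 856 and 944 CPM in digit-after WT libraries. Digit-before Fos was 19 and 12.5 CPM in VLDLR_KO and 27.9 and 36 CPM in ROBO4_KO, against 42.2, 35.8 and 32.1 CPM in WT. The 10 knockout libraries therefore lay between 12.5 and 56.2 CPM, a range that holds the digit-before WT libraries too, and the digit-after WT libraries stood far above it. The log2 fold change of VLDLR_KO against WT was -4.24 ± 0.17 (SE; edgeR quasi-likelihood test, adjusted p = 6.14e-09) in the digit-after libraries and -1.22 ± 0.18 (adjusted p = 0.000393) in the digit-before libraries. The digit-before VLDLR_KO libraries lay below all WT libraries of that form without overlap. For ROBO4_KO against WT the log2 fold change was -4.05 ± 0.17 (adjusted p = 1.12e-08) in the digit-after and -0.20 ± 0.17 (adjusted p = 0.999) in the digit-before libraries.

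Fosb, a Fos relative that also pairs with Jun proteins, was nearly absent outside the digit-after WT libraries. It had 1.64, 0.669 and 1.11 CPM in digit-after VLDLR_KO libraries and 0.167, 0.521 and 0.615 CPM in digit-after ROBO4_KO libraries, against 93.6 and 132 CPM in digit-after WT libraries. Digit-before Fosb was 0.109 and 0.178 CPM in VLDLR_KO and 0.800 and 0.826 CPM in ROBO4_KO, against 0.518, 0.845 and 0.426 CPM in WT. The 2 digit-before VLDLR_KO values rest on 2 and 3 estimated counts, against 8 to 16 counts in digit-before WT libraries. Its log2 fold change against digit-after WT was -6.61 ± 0.32 in VLDLR_KO (adjusted p = 2.79e-08) and -7.98 ± 0.35 in ROBO4_KO (adjusted p = 1.46e-08), the steepest of the 10 genes in both comparisons. In the digit-before libraries VLDLR_KO was called lower than WT (log2 fold change -2.02 ± 0.69, adjusted p = 0.0401), a call lost when any 1 of 8 libraries was left out.

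Jun, whose protein binds DNA alone or with Fos, differed far less. Its level was 102, 133 and 118 CPM in digit-after VLDLR_KO libraries and 125, 112 and 124 CPM in digit-after ROBO4_KO libraries, against 195 and 217 CPM in digit-after WT libraries. Digit-before Jun was 92.1 and 84.5 CPM in VLDLR_KO and 111 and 123 CPM in ROBO4_KO, against 129.6, 128 and 131 CPM in WT. No knockout library reached its WT counterparts in either form. The log2 fold change was -0.81 ± 0.11 (adjusted p = 0.000241) in digit-after and -0.55 ± 0.11 (adjusted p = 0.00297) in digit-before VLDLR_KO libraries. For ROBO4_KO it was -0.78 ± 0.11 (adjusted p = 0.0013) in the digit-after libraries.

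Junb, a Jun relative that can oppose Jun on shared targets, was 67.1, 96 and 89 CPM in digit-after VLDLR_KO and 106, 82.5 and 83.8 CPM in digit-after ROBO4_KO libraries, against 514 and 552 CPM in digit-after WT libraries. Digit-before Junb was 108 and 151 CPM in VLDLR_KO and 80.1 and 93.5 CPM in ROBO4_KO, against 96, 81.9 and 95.5 CPM in WT. The VLDLR_KO libraries thus lay below WT in 1 form and above it in the other, with no overlap in either. The digit-after difference was -2.66 ± 0.17 on the log2 scale (adjusted p = 4.02e-07), and the digit-before difference was 0.50 ± 0.17 (adjusted p = 0.0396). The digit-before call was lost when any 1 of 7 libraries was left out, with an adjusted p of 0.426 without VLDLR_KO replicate 2. ROBO4_KO differed from WT by -2.55 ± 0.17 (adjusted p = 1.06e-06) in the digit-after libraries.

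Egr1, a zinc finger factor and a classical target of serum response factor, separated the knockouts from each other. It measured 53.6, 24.3 and 44.2 CPM in digit-after VLDLR_KO libraries and 4.06, 3.91 and 6.15 CPM in digit-after ROBO4_KO libraries, against 249.7 and 296 CPM in digit-after WT libraries. Digit-before Egr1 was 5.12 and 3.21 CPM in VLDLR_KO and 7.25 and 11.9 CPM in ROBO4_KO, against 13.1, 9.61 and 9.52 CPM in WT. Digit-after VLDLR_KO libraries lay between the other genotypes of that form, and digit-before VLDLR_KO libraries lay below both. Against WT the log2 fold change of VLDLR_KO was -2.74 ± 0.29 (adjusted p = 4.04e-05) in digit-after and -1.36 ± 0.37 (adjusted p = 0.0141) in digit-before libraries. The digit-before call was lost without VLDLR_KO replicate 2, at an adjusted p of 0.144. For ROBO4_KO it was -5.85 ± 0.34 (adjusted p = 2.31e-07) in the digit-after libraries.

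Nr4a1, an orphan nuclear receptor, stayed at a few CPM in all knockout libraries. Its values were 2.44, 3.85 and 3.45 CPM in digit-after VLDLR_KO and 1.61, 2.71 and 2.97 CPM in digit-after ROBO4_KO libraries, against 76.5 and 78.3 CPM in digit-after WT libraries. Digit-before Nr4a1 was 1.36 and 1.66 CPM in VLDLR_KO and 2.72 and 3.72 CPM in ROBO4_KO, against 3.78, 3.64 and 2.98 CPM in WT. The digit-after WT libraries stood apart, and the digit-before VLDLR_KO libraries lay below those of both other genotypes. The VLDLR_KO difference from WT was -4.58 ± 0.23 on the log2 scale (adjusted p = 5.2e-08) in digit-after and -1.20 ± 0.28 (adjusted p = 0.00689) in digit-before libraries. The ROBO4_KO difference was -4.98 ± 0.24 (adjusted p = 3.35e-08) in the digit-after libraries.

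Atf3, a stress-induced factor of the ATF and CREB family that is known to restrain cytokine genes in macrophages, did not follow the others. It stood at 279.7, 514 and 341 CPM in digit-after VLDLR_KO libraries and 762, 522 and 465 CPM in digit-after ROBO4_KO libraries, against 473 and 483 CPM in digit-after WT libraries. Digit-before Atf3 was 282 and 319 CPM in VLDLR_KO and 472 and 449 CPM in ROBO4_KO, against 439.6, 477 and 464 CPM in WT. ROBO4_KO replicate 3 was the highest library of all, and the digit-after VLDLR_KO libraries overlapped WT. The digit-before VLDLR_KO libraries lay below WT without overlap. In neither form did edgeR call Atf3, with a VLDLR_KO log2 fold change of -0.34 ± 0.22 (adjusted p = 0.361) in digit-after and -0.61 ± 0.23 (adjusted p = 0.0559) in digit-before libraries. The ROBO4_KO value was 0.29 ± 0.23 (adjusted p = 0.759) in the digit-after libraries. The digit-before difference was called when any 1 of 4 libraries was left out, with an adjusted p of 0.0189 without VLDLR_KO replicate 4, and DESeq2 called it with all libraries. All 4 are digit-after libraries, which enter this comparison only through the fit shared by all libraries. The log2 fold change stayed at -0.61 without each of them. In the authors' deposited table, which used DESeq2, Atf3 had a q-value of 0.000665 between VLDLR_KO and WT in the digit-before libraries.

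Zfp36 encodes tristetraprolin, the decay factor for AU-rich messages. Its level was 67.4, 91.9 and 81 CPM in digit-after VLDLR_KO and 99.4, 91.6 and 90.4 CPM in digit-after ROBO4_KO libraries, against 971 and 1018 CPM in digit-after WT libraries. Digit-before Zfp36 was 102 and 97 CPM in VLDLR_KO and 111 and 118 CPM in ROBO4_KO, against 131, 120.4 and 118 CPM in WT. Zfp36 was at its lowest in the digit-after knockouts and at its highest in WT of the same form. It gave the smallest adjusted p among the 10 genes in both digit-after comparisons with WT, namely 5.4e-10 in VLDLR_KO and 1.68e-09 in ROBO4_KO, where its log2 fold changes were -3.63 ± 0.12 and -3.41 ± 0.12 in that order. In the digit-before libraries edgeR did not call VLDLR_KO against WT, at -0.30 ± 0.11 (adjusted p = 0.0571), although DESeq2 called it. The edgeR fit called it without VLDLR_KO replicate 3 (adjusted p = 0.0249) or 4 (adjusted p = 0.0316). Both are digit-after libraries, outside this comparison, and the log2 fold change stayed at -0.30 without either.

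Dusp1, the phosphatase that switches off p38 and JNK, had the smallest adjusted p of the 10 genes between VLDLR_KO and WT in the digit-before libraries. It measured 61.9, 95 and 74 CPM in digit-after VLDLR_KO libraries and 45.6, 61.4 and 66.1 CPM in digit-after ROBO4_KO libraries, against 597 and 681 CPM in digit-after WT libraries. Digit-before Dusp1 was 11.6 and 9.45 CPM in VLDLR_KO and 29.5 and 35.3 CPM in ROBO4_KO, against 33.1, 34.2 and 35.3 CPM in WT. The digit-before VLDLR_KO libraries were the lowest of all 15. The VLDLR_KO log2 fold change was -3.05 ± 0.18 (adjusted p = 1.72e-07) in digit-after and -1.70 ± 0.20 (adjusted p = 7.48e-05) in digit-before libraries. For ROBO4_KO it was -3.47 ± 0.18 (adjusted p = 8.73e-08) in the digit-after libraries.

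Ier2, which encodes a small nuclear protein, was 23.2, 16.9 and 24.4 CPM in digit-after VLDLR_KO and 12.3, 11.6 and 11.5 CPM in digit-after ROBO4_KO libraries, against 99.2 and 111 CPM in digit-after WT libraries. Digit-before Ier2 was 23.4 and 36.4 CPM in VLDLR_KO and 15.2 and 17.8 CPM in ROBO4_KO, against 19.1, 17.5 and 20.4 CPM in WT. As with Junb, VLDLR_KO lay below WT in the digit-after and above it in the digit-before libraries. The log2 fold change was -2.29 ± 0.18 (adjusted p = 2.03e-06) in digit-after and 0.65 ± 0.18 (adjusted p = 0.0156) in digit-before VLDLR_KO libraries. The digit-before call was lost without VLDLR_KO replicate 2 (adjusted p = 0.28) and without WT replicate 4 (adjusted p = 0.0557). ROBO4_KO differed from WT by -3.16 ± 0.18 (adjusted p = 2.28e-07) in digit-after and -0.20 ± 0.19 (adjusted p = 0.999) in digit-before libraries.

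**Figure D3:**
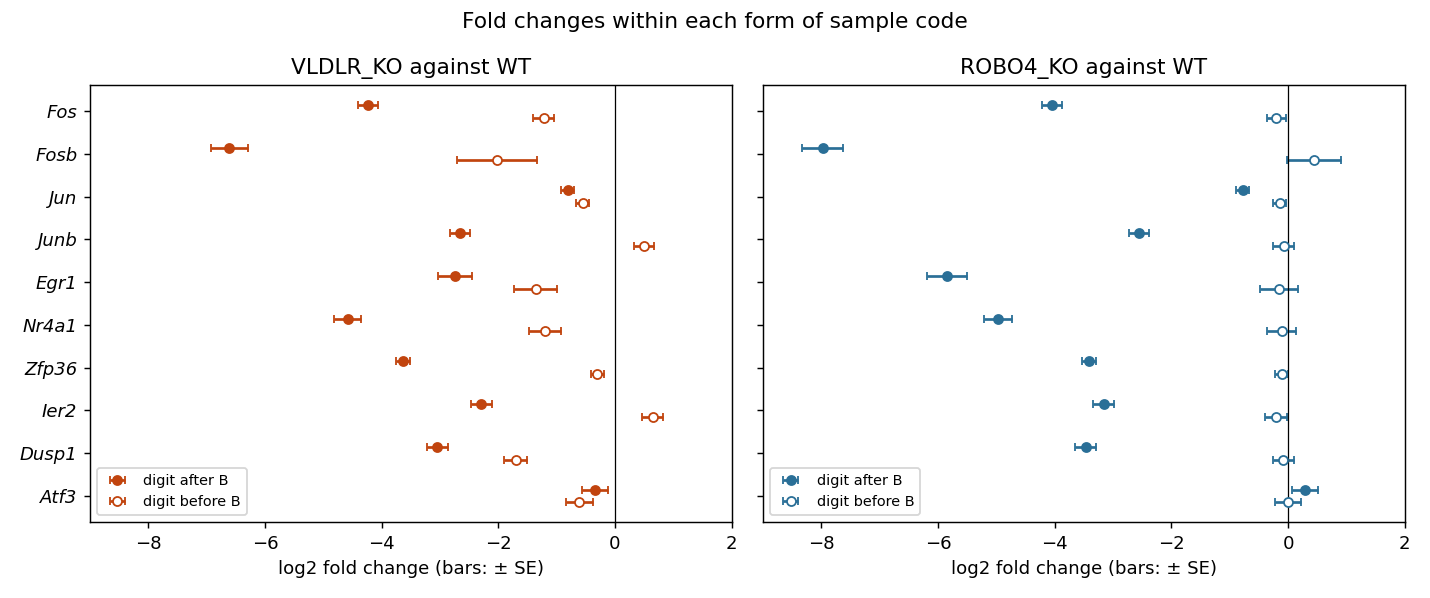
Log2 fold changes (± SE) of the 10 genes for VLDLR_KO (left) and ROBO4_KO (right) against WT, with filled points for digit-after and open points for digit-before libraries. All 10 digit-after VLDLR_KO points and 9 of the 10 digit-after ROBO4_KO points lie below 0, and the digit-before ROBO4_KO points lie between -0.20 and 0.44.

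Summed over the 10 genes, the digit-after libraries held 701, 1029 and 824 CPM in VLDLR_KO and 1210, 943 and 907 CPM in ROBO4_KO, against 4124 and 4513 CPM in WT. The digit-before sums were 645 and 715 CPM in VLDLR_KO and 857 and 888 CPM in ROBO4_KO, against 908, 909 and 909.6 CPM in WT. The 3 digit-before WT libraries were therefore much alike, and the digit-before ROBO4_KO libraries lay just under them. Atf3 made up much of these sums outside digit-after WT. Without Atf3 the digit-before sums were 363 and 395.5 CPM in VLDLR_KO, 385 and 439 CPM in ROBO4_KO and 468, 432 and 445 CPM in WT. ROBO4_KO then overlapped both other genotypes. The digit-after sums without Atf3 were 421, 514 and 483 CPM in VLDLR_KO, 447, 421 and 441 CPM in ROBO4_KO and 3651 and 4030 CPM in WT. Over the 10 genes the median log2 fold change against WT was -2.90 in digit-after VLDLR_KO, -0.91 in digit-before VLDLR_KO, -3.44 in digit-after ROBO4_KO and -0.11 in digit-before ROBO4_KO, and the median over all tested genes lay between -0.01 and 0.01.

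Whether a genotype difference depended on the form of the code was tested as the difference of the 2 log2 fold changes. For VLDLR_KO this difference was called for 7 of the 10 genes, all more negative in the digit-after libraries, beside 14.5% of all tested genes called and 7.93% called in that direction. It was largest for Fosb at -4.60 ± 1.15 (adjusted p = 0.0211) and smallest among the called genes for Dusp1 at -1.36 ± 0.26 (adjusted p = 0.00628). Without VLDLR_KO replicate 2 the Fosb call was lost, at an adjusted p of 0.165. Egr1 (-1.39 ± 0.47, adjusted p = 0.0631), Jun (-0.26 ± 0.15, adjusted p = 0.253) and Atf3 (0.28 ± 0.32, adjusted p = 0.567) were not called. For ROBO4_KO the difference was called for 8 genes, all more negative in the digit-after libraries, beside 0.385% of all tested genes called and 0.377% called in that direction. Fosb (-8.43 ± 0.65, adjusted p = 1.05e-05) and Egr1 (-5.69 ± 0.46, adjusted p = 1.71e-05) were the steepest of these, and Jun (-0.63 ± 0.15, adjusted p = 0.172) and Atf3 (0.29 ± 0.32, adjusted p = 0.95) were not called.

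For 9 of the 10 genes the forms of the code differed more in WT than in either knockout. In WT 9 genes were higher in the digit-after than in the digit-before libraries, beside 14.7% of all tested genes called and 7.89% called higher. Fos was higher by 4.61 ± 0.18 on the log2 scale (adjusted p = 4.75e-09), Dusp1 by 4.22 ± 0.19 (adjusted p = 2.27e-08) and Nr4a1 by 4.48 ± 0.23 (adjusted p = 1.04e-07). In VLDLR_KO 9 genes were called, 6 higher and 3 lower in the digit-after libraries, beside 46.6% of all tested genes (22.5% higher and 24.1% lower). Egr1 at 3.28 ± 0.37 (adjusted p = 3.55e-05) and Dusp1 at 2.87 ± 0.21 (adjusted p = 1.81e-06) were higher, and Junb at -0.62 ± 0.17 (adjusted p = 0.0108) was lower. The Junb call was lost without VLDLR_KO replicate 2 (adjusted p = 0.183). In ROBO4_KO 2 genes were called higher in the digit-after libraries, Fos at 0.77 ± 0.17 (adjusted p = 0.0094) and Dusp1 at 0.83 ± 0.19 (adjusted p = 0.00948), beside 16.5% of all tested genes called and 7.95% called higher. Both calls were lost without ROBO4_KO replicate 1, at adjusted p-values of 0.116 and 0.103. Markers moved with the form as well. In WT the 8 neutrophil markers summed to 6.84 and 8.94 CPM in digit-after libraries, against 0.311 to 0.426 CPM in digit-before libraries, and the 7 osteoclast markers to 90.5 and 122 CPM, against 21.3 to 43.5 CPM. Both sums moved the same way in the knockouts. The neutrophil sums were 4.51 to 5.86 against 0.818 to 1.43 CPM in VLDLR_KO and 7.06 to 16.2 against 0.103 to 0.213 CPM in ROBO4_KO. The osteoclast sums were 75.8 to 291 against 20.9 to 29.05 CPM in VLDLR_KO and 95.1 to 307.5 against 26.55 to 31.4 CPM in ROBO4_KO. Itgax averaged 778 ± 84.9 CPM in digit-after WT libraries and 93.2 ± 22.6 CPM in digit-before WT libraries (SD, n = 2 and 3). Their part in the differences of the 10 genes was not tested.

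The knockouts were also set against each other. In the digit-after libraries 2 genes were called, both higher in VLDLR_KO than in ROBO4_KO, beside 11.9% of all tested genes called and 5.59% called higher. These were Egr1, with a difference of 3.11 ± 0.31 on the log2 scale (adjusted p = 2.24e-05), and Ier2, with 0.87 ± 0.17 (adjusted p = 0.00408). Fosb (1.37 ± 0.42, adjusted p = 0.0517) and Atf3 (-0.62 ± 0.20, adjusted p = 0.0644) were close to the threshold, and without VLDLR_KO replicate 4 the count was 5. Among digit-before libraries 8 genes were called, 6 lower and 2 higher in VLDLR_KO, beside 29.6% of all tested genes (13.7% lower and 15.9% higher). Dusp1 (-1.62 ± 0.22, adjusted p = 0.000247) and Fos (-1.02 ± 0.19, adjusted p = 0.00287) were lower, and Ier2 (0.86 ± 0.20, adjusted p = 0.00922) and Junb (0.58 ± 0.19, adjusted p = 0.0387) were higher. The Junb call was lost when any 1 of 7 libraries was left out (adjusted p up to 0.356), and the Ier2 call without VLDLR_KO replicate 2 (0.111) or ROBO4_KO replicate 1 (0.0791). Egr1 lay on opposite sides in the forms, higher in digit-after and lower in digit-before VLDLR_KO libraries (-1.20 ± 0.39, adjusted p = 0.0366). The digit-before Egr1 call was lost without VLDLR_KO replicate 2 (0.266) or ROBO4_KO replicate 2 (0.238). The digit-before count fell to 2 without VLDLR_KO replicate 2, to 3 without ROBO4_KO replicate 2 and to 4 without ROBO4_KO replicate 1.

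Because the digit-after WT libraries stand apart, the genotypes were also compared without them, with genotype and form as additive terms over the other 13 libraries. Then 3 genes were called between VLDLR_KO and WT, beside 10.9% of all tested genes: Fos at -0.94 (adjusted p = 0.0198) and Jun at -0.44 (adjusted p = 0.0401) were lower, and Ier2 at 0.66 (adjusted p = 0.0305) was higher. Dusp1 (-0.91, adjusted p = 0.192), Egr1 (0.51, adjusted p = 0.756) and Fosb (-0.21, adjusted p = 0.901) were not called. Between ROBO4_KO and WT edgeR called 0 of the 10 genes, and 0 had an unadjusted p under 0.05, beside 0.361% of all tested genes called, and the log2 fold changes lay between -1.03 for Egr1 and 0.15 for Junb.

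The calls between VLDLR_KO and WT in the digit-before libraries were less firm than those in the digit-after libraries, with WT libraries that were like the rest of the series. The count was 4 without VLDLR_KO replicate 2 and 5 without WT replicate 4. In the authors' deposited table the digit-before q-values were 0.218 for Fosb, 0.0758 for Junb and 0.0578 for Ier2. Cell type markers moved with this comparison as well. The 11 macrophage markers summed to 50240 and 58330 CPM in digit-before VLDLR_KO libraries, against 33630 to 35580 CPM in digit-before WT libraries. Lyz2 carried most of this, at a mean of 23340 CPM in VLDLR_KO against 5552 CPM in WT, while Itgam (205 against 439.7 CPM) and Mrc1 (176 against 391 CPM) were lower in VLDLR_KO. Of the 11 markers 4 were called higher and 3 lower, beside 17.6% of all tested genes called higher and 15.6% lower. The 10 fibroblast and matrix markers summed to 10.5 and 57.5 CPM in VLDLR_KO, against 212 to 729 CPM in WT, with Lum at 0 in both. The 7 dendritic cell markers, whose sum was mostly Itgax, reached 747 to 954 CPM in VLDLR_KO, against 67.9 to 109 CPM in WT, and Siglech and Ccr7 were at 0 in both VLDLR_KO libraries. The 4 mast cell and basophil markers in the table summed to 2.20 to 4.25 CPM in VLDLR_KO, against 21.1 to 27.5 CPM in WT, nearly all of it Kit, which other cells express too, with Cpa3 and Prss34 at 0 in both. Their part in the differences of the 10 genes was not tested.

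Marker sums differed in the digit-after libraries too. Macrophage markers summed to 37310 to 40230 CPM in VLDLR_KO and 33650 to 38070 CPM in ROBO4_KO, against 40650 and 40810 CPM in WT. The 8 neutrophil markers summed to 4.51 to 5.86 CPM in VLDLR_KO and 7.06 to 16.2 CPM in ROBO4_KO, against 6.84 and 8.94 CPM in WT. The neutrophil sums of WT thus lay among those of the knockouts, at a small share of the macrophage sums. The 6 endothelial markers summed to 96.0 to 112 CPM in VLDLR_KO and 85.1 to 116 CPM in ROBO4_KO, against 119 and 141 CPM in WT. This sum was mostly Vwf, and Pecam1, Cdh5, Emcn and Tek reached at most 1.312 CPM in any library. The 7 dendritic cell markers summed to 1369 to 2365 CPM in VLDLR_KO and 489.7 to 962 CPM in ROBO4_KO, against 719 and 840.2 CPM in WT. The 8 osteoblast markers, mostly Spp1, summed to 3584 to 4009 CPM in VLDLR_KO and 1723 to 2200 CPM in ROBO4_KO, against 3265 and 3778 CPM in WT. The 4 mast cell and basophil markers, mostly Kit, summed to 0.558 to 1.48 CPM in VLDLR_KO and 1.22 to 3.96 CPM in ROBO4_KO, against 2.46 and 2.62 CPM in WT. What part these sums had in the differences was not tested.

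Compared per length, as FPKM, the order of the 10 genes changed between sets. In digit-after WT libraries Zfp36 led at 599 FPKM (mean, n = 2), followed by Fos at 449.6 FPKM, Dusp1 at 346 FPKM and Junb at 307 FPKM, with Atf3 at 254 FPKM in the fifth place. In all 5 other sets Atf3 led, at 209 FPKM in digit-after and 160.2 FPKM in digit-before VLDLR_KO, 319 FPKM in digit-after and 261 FPKM in digit-before ROBO4_KO, and 261 FPKM in digit-before WT libraries. Fosb was the lowest of the 10 in those 5 sets, at 0.04 to 0.323 FPKM, and Nr4a1 the next lowest, at 0.580 to 1.44 FPKM. In digit-after WT libraries both stood near 30.4 FPKM.

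Ordering the 6 sets of libraries by CPM for each gene put digit-after WT first for 9 genes, and it did not overlap the next set in any of them. Below it, the sets of Nr4a1 overlapped their neighbours at every step, and those of Fosb did too. Fos, Jun and Dusp1 were lowest in digit-before VLDLR_KO, which did not overlap the next set. For Zfp36 the digit-after knockouts were lowest, and for Ier2 digit-after ROBO4_KO was lowest without overlap.

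The genes outside the 10 with the most similar profile over the 15 libraries were Phlda1, Dusp2, Csrnp1, Tnf and Pim1. Likeness was the root mean square difference of centred log2 CPM from the mean profile of the 10 genes, and it was 0.46 for Phlda1, 0.47 for Dusp2, 0.52 for Csrnp1 and 0.53 for Tnf and Pim1, among 12188 genes compared. The same measure was 0.44 for Zfp36 and 0.51 for Nr4a1, and 1.23 for Atf3 and 1.57 for Fosb, and the other 6 members lay between 0.55 for Fos and 1.0 for Egr1. All but Zfp36 and Nr4a1, 8 of the 10 genes, were thus less like the mean than these 5 outsiders. Tnf, the cytokine whose message the Zfp36 protein is known to destabilise, averaged 29 ± 9.11 CPM in digit-after VLDLR_KO and 17.4 ± 1.90 CPM in digit-after ROBO4_KO, against 405 ± 53 CPM in digit-after WT libraries (SD, n = 3, 3 and 2).

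Other immediate-early transcription factors were also looked at. Of 20 tested, 5 were lower and 3 higher in digit-after VLDLR_KO than in WT, with a median log2 fold change of -0.28, where 13.4% of all tested genes were called. In digit-after ROBO4_KO 9 were lower, with a median of -0.63, where 1.59% of all tested genes were called. The factors Nr4a2 (-1.94 ± 0.38, adjusted p = 0.00501) and Csrnp1 (-1.85 ± 0.22, adjusted p = 9.16e-05) were lower in VLDLR_KO, and Klf10 (0.81 ± 0.18, adjusted p = 0.0111), a factor of the TGF-beta response, was higher. Hes1, a Notch target, was also higher (2.30 ± 0.68, adjusted p = 0.0412), a call lost when any 1 of 7 libraries was left out, with an adjusted p of 0.346 without WT replicate 2. Without WT replicate 2 the adjusted p was 0.0949 for Nr4a2 and 0.0889 for Klf10, and without WT replicate 1 it was 0.105 for Klf10. Among digit-before libraries 4 of the 20 were lower and 1 was higher in VLDLR_KO, a share below the 33.2% called over all tested genes, among them Myc at -0.71 ± 0.15 (adjusted p = 0.00407) and Klf10 at -1.19 ± 0.19 (adjusted p = 0.0008). Klf10 was thus higher in digit-after and lower in digit-before VLDLR_KO, the reverse of Junb and Ier2.

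Among 20 tested immediate-early genes that do not encode transcription factors, 11 were lower and 2 higher in digit-after VLDLR_KO than in WT (13.4% called over all tested genes), with a median of -0.71. In digit-after ROBO4_KO 10 were lower (1.59% called over all tested genes), with a median of -0.74. Ptgs2, the inducible cyclooxygenase, averaged 0.917 ± 0.352 CPM in VLDLR_KO and 0.351 ± 0.070 CPM in ROBO4_KO, against 45.4 ± 10.3 CPM in WT, and its VLDLR_KO log2 fold change was -5.62 ± 0.50 (adjusted p = 7.61e-06). The antiproliferative gene Btg2 (-3.90 ± 0.27, adjusted p = 7.3e-07) and Ppp1r15a, a regulator of translation under stress (-2.71 ± 0.16, adjusted p = 1.96e-07), were lower there too. Digit-before VLDLR_KO libraries had 5 of the 20 lower and 3 higher than WT, a share near the 33.2% called over all tested genes, with Ptgs2 among the lower (-2.62 ± 0.61, adjusted p = 0.00661) and the lymphocyte activation marker Cd69 among the higher (2.89 ± 0.64, adjusted p = 0.00504). The Ptgs2 call was lost without VLDLR_KO replicate 2, at an adjusted p of 0.0639.

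Of 26 tested MAP kinase phosphatases and other feedback genes, 16 were lower and 2 higher in digit-after VLDLR_KO, with a median of -0.89, beside 13.4% called over all tested genes. In digit-after ROBO4_KO 14 were lower, with a median of -0.91, beside 1.59%. Socs3, a brake on cytokine receptors, averaged 0.917 ± 0.161 CPM in VLDLR_KO and 0.265 ± 0.055 CPM in ROBO4_KO, against 31.6 ± 2.64 CPM in WT, and the VLDLR_KO difference on the log2 scale was -5.10 ± 0.36 (adjusted p = 9.73e-07). Nfkbia, the inhibitor of NF-kappaB, stood at a log2 fold change of -2.59 ± 0.17 (adjusted p = 4.02e-07) in digit-after VLDLR_KO. In digit-before VLDLR_KO 5 of the 26 were higher and 7 lower, beside 33.2% called over all tested genes. Nfkbia (1.41 ± 0.17, adjusted p = 7.41e-05), Socs3 (0.98 ± 0.34, adjusted p = 0.0413) and Nfkbiz (0.98 ± 0.26, adjusted p = 0.013) were higher there, and the phosphatases Dusp4 (-2.30 ± 0.20, adjusted p = 5.51e-06) and Dusp5 (-1.36 ± 0.45, adjusted p = 0.0336) were lower. Dusp4 and Dusp5 belong to the same family as Dusp1 and lay on the same side as it. The Socs3 call was lost when any 1 of 8 libraries was left out, the Nfkbiz call without VLDLR_KO replicate 1 (adjusted p = 0.0855) or WT replicate 4 (0.0523), and the Dusp5 call without VLDLR_KO replicate 2 (0.197) or WT replicate 3 (0.128).

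The kinases and factors that act upstream of immediate-early genes were looked at in the same way. Of 21 tested, edgeR called 0 between VLDLR_KO and WT in the digit-after libraries, beside 13.4% of all tested genes. There 3 had an unadjusted p under 0.05 and DESeq2 called 1. Between ROBO4_KO and WT in the digit-after libraries edgeR called 0, a share near the 1.59% called over all tested genes. There 1 had an unadjusted p under 0.05 and DESeq2 called 0. The medians were 0.06 in VLDLR_KO and -0.01 in ROBO4_KO. Digit-before VLDLR_KO libraries had 7 of the 21 higher and 1 lower than WT, where 17.6% of all tested genes were higher and 15.6% lower, among them Mapk3, which encodes ERK1, at 0.75 ± 0.14 (adjusted p = 0.00231).

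The list of messages that the Zfp36 protein is known to bind had the most negative medians of these lists in the digit-after libraries. Of 12 tested, 9 were lower and 1 higher in digit-after VLDLR_KO (13.4% called over all tested genes), with a median of -2.43. In digit-after ROBO4_KO 8 were lower (1.59% called over all tested genes), with a median of -3.28. The chemokine Cxcl2 averaged 1.98 ± 0.654 CPM in VLDLR_KO and 1.02 ± 0.237 CPM in ROBO4_KO, against 155 ± 38.1 CPM in WT (log2 fold change of VLDLR_KO -6.28 ± 0.26, adjusted p = 6.14e-09). Il1b, an inflammatory cytokine, was -5.61 ± 0.30 (adjusted p = 9.1e-08) in digit-after VLDLR_KO. Digit-before Il1b was higher in VLDLR_KO than in WT (2.37 ± 0.28, adjusted p = 6.39e-05), and 3 messages in all were higher and 4 lower, beside 33.2% called over all tested genes. Zfp36 itself was low in the same digit-after libraries in which these messages were low. The digit-after values of all these lists rest on the 2 WT libraries that stand apart. With genotype and form as terms and without those 2, the VLDLR_KO difference from WT turned to 2.37 for Il1b, 1.23 for Cxcl2, 1.21 for Nfkbia and 1.12 for Socs3.

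Between ROBO4_KO and WT in the digit-before libraries these related lists together gave 1 call, beside 0.328% of all tested genes called. The gene was Dusp7, a phosphatase of ERK and 1 of the 26 feedback genes tested. It is named here after its value was seen, at a log2 fold change of -1.14 ± 0.13 (SE, adjusted p = 0.00102).

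**Figure D4:**
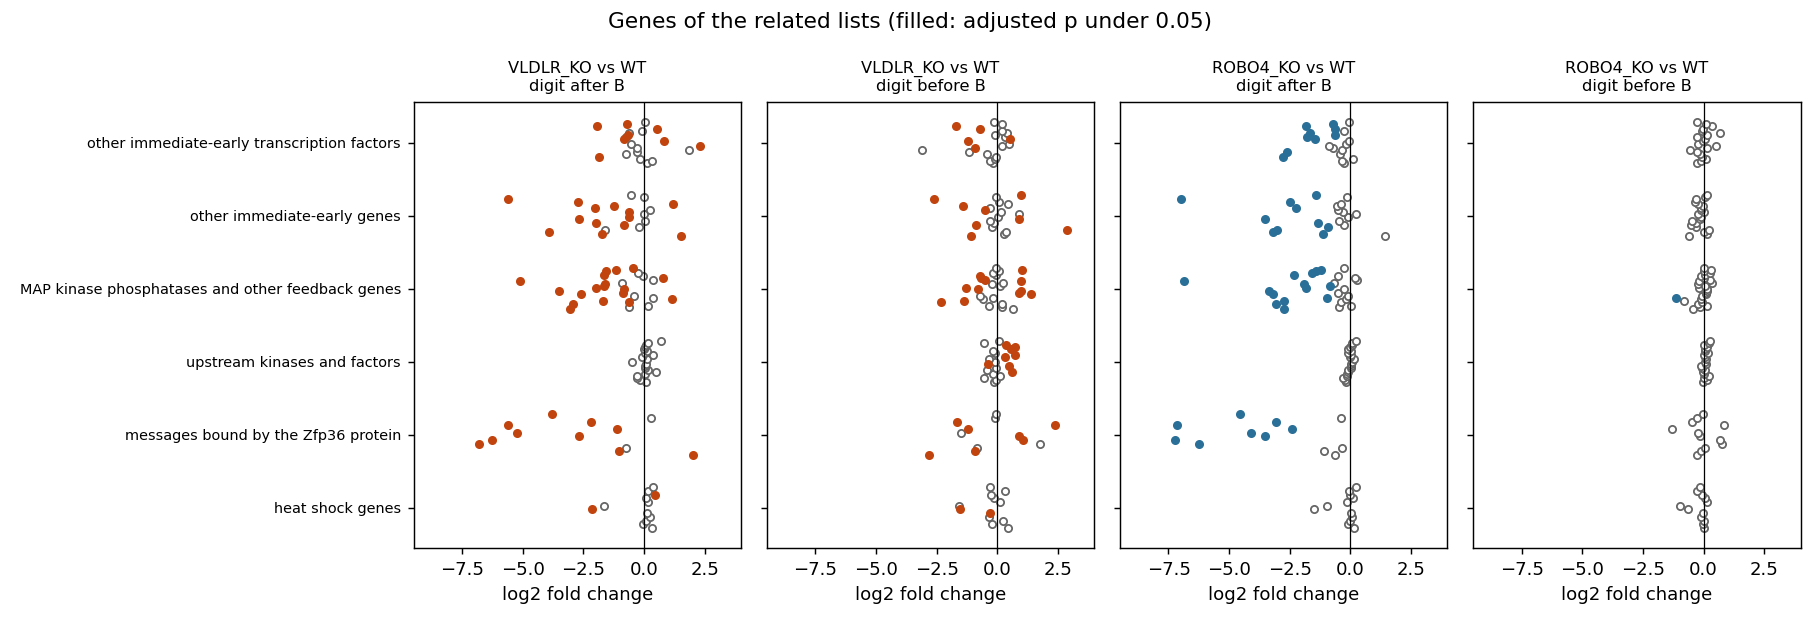
Log2 fold changes against WT of the tested genes in 6 related lists, for VLDLR_KO (left 2 panels) and ROBO4_KO (right 2 panels) within each form, with filled points for adjusted p under 0.05. In the digit-before ROBO4_KO panel 1 feedback gene is filled, and in the digit-after panels the upstream kinases hold 0 filled points.

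The counts are per gene and some deposited gene spans differ from RefSeq. For 6 of the 10 genes the span in the deposited table differed from the RefSeq span on GRCm38.p6. Jun lies on chromosome 4 between 95049036 and 95052222 in RefSeq and between 95047647 and 95167319 in the deposited table, and Jun, Zfp36 and Dusp1 are given there on the plus strand although their RefSeq promoters are on the minus strand. Whether counting used strand is not given in the sources used here, so reads of these genes and of overlapping antisense transcripts cannot be told apart.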

How the data were processed

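Per the labels' protocols, a SMARTER kit was used to make libraries from total RNA, and a BGISEQ-500 read both ends of each fragment. HISAT, Bowtie2 and the build GRCm38.p6 are named in the submitters' processing notes, without versions of the tools; which program counted the reads is not given in the sources used here. Read counts in the deposited tables are estimated counts (expected counts, not normalized), since only 92.6% of the gene values were whole. The deposited expression columns carry no unit and are taken as FPKM made by the authors, since count per FPKM followed library totals to within 0.76%. The authors' DESeq2 q-values (adjusted p-values) and their log2 fold changes, which run WT over knockout, were read from the deposited table and entered no fit; its sets of libraries were identified by their deposited mean counts, which equal the means of the libraries named.

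Counts were rounded and fitted with edgeR 4.0.16 in R 4.3.3 (filterByExpr, TMM, 6 means for genotype and form over 15 libraries, two-sided quasi-likelihood F tests). Genes with a Benjamini-Hochberg adjusted p under 0.05 over 12198 genes are called. CPM uses TMM-scaled totals (factors 0.928 to 1.042), and an SE is the size of the log2 fold change divided by the square root of F. Of the 10 genes, 9 had at least 10 counts in all 15 libraries and Fosb in 11. Chi-square per degree of freedom between replicates was 5.92 to 92.7, so none was counted as a duplicate. Code was checked on simulated counts.

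Alternatives were RLE scaling, no filter, DESeq2 1.42.0, limma 3.58.1 on log2(FPKM + 0.1) and log2(FPKM + 1), other covariates, fewer libraries and leaving out each library. The 10 genes, the related lists and the tests were chosen with earlier results of these data known. All 10 genes are named. Of each related list, up to 6 genes are those with the largest called change between VLDLR_KO and WT in the digit-after libraries and up to 4 those in the digit-before libraries, and the 5 nearest profiles are named. Of the upstream list, 1 gene that this rule names is not reported here. The second deposited gene table, whose values repeat those of the first, was left out.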

Additional observations from a re-analysis of the deposited data

Results flagged for a closer look

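The VLDLR_KO effect (VLDLR_KO minus WT, log2) differed between digit-after and digit-before libraries for 7 genes by a test of the difference itself. The differences were -3.02 for Fos, -4.60 for Fosb, -3.17 for Junb, -3.38 for Nr4a1, -3.33 for Zfp36, -2.94 for Ier2 and -1.36 for Dusp1. The ROBO4_KO effect differed between the forms for 8 genes, by -3.85 for Fos, -8.43 for Fosb, -2.48 for Junb, -5.69 for Egr1, -4.88 for Nr4a1, -3.30 for Zfp36, -2.96 for Ier2 and -3.39 for Dusp1. In each case the digit-after WT libraries, which both sets of differences share, were the high ones.

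Atf3 had a single library far from the rest in 2 genotypes. VLDLR_KO replicate 4 stood at 514 CPM, and ROBO4_KO replicate 3 stood at 762 CPM, each the highest of 5. Chance alone marks about 1 in 20 such groups.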

How the results depend on the processing

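Counts of the 10 genes called are given here first. Leaving out each library in turn gave 9 to 10 for VLDLR_KO against WT in the digit-after libraries, 4 to 10 in the digit-before libraries, 9 to 9 for ROBO4_KO against WT in the digit-after and 0 to 0 in the digit-before libraries. It gave 2 to 5 for VLDLR_KO against ROBO4_KO in the digit-after and 2 to 9 in the digit-before libraries, 6 to 8 and 8 to 8 for the VLDLR_KO and ROBO4_KO effects differing between forms, and 9 to 9, 5 to 8 and 0 to 3 for the forms within WT, VLDLR_KO and ROBO4_KO. RLE scaling, FPKM with either pseudocount, no filter and DESeq2 kept these counts within 1.5 times, except that VLDLR_KO against ROBO4_KO in the digit-after libraries had 4 with no filter and 4 with DESeq2. With only the libraries of that form, the digit-before VLDLR_KO against ROBO4_KO count was 5.

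Pooling the forms gave 5 for VLDLR_KO against WT, 0 for ROBO4_KO against WT and 1 for VLDLR_KO against ROBO4_KO. In the same order, 9, 9 and 1 of the genes had an unadjusted edgeR p under 0.05 with pooled forms. Genotype plus form gave 0 for ROBO4_KO against WT, 1 for VLDLR_KO against ROBO4_KO and 6 for the form in ROBO4_KO. The numbers with an unadjusted edgeR p under 0.05 were 9, 1 and 6 in that order. For ROBO4_KO against WT both fits thus lost the calls only after adjustment. Without both digit-after WT libraries there were 3 for VLDLR_KO and 0 for ROBO4_KO against WT. All these fits, with or without those 2 libraries, give 1 value for both forms, so a value of 1 form can turn by construction. Beyond this the cause was not tested.

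Directions that turned are listed by fit. Pooled forms turned, in the digit-before comparison of VLDLR_KO with WT, Junb (-1.39), Ier2 (-1.10), Klf10 (0.46), Myc (0.45), Nfkbia (-0.91), Socs3 (-2.54), Nfkbiz (-1.44), Il1b (-2.03) and Hsp90ab1 (0.04), in that of ROBO4_KO with WT, Fosb (-6.26), in the digit-after comparison of VLDLR_KO with ROBO4_KO, Junb (0.20) and Nr4a1 (-0.11), and in the digit-before one, Fosb (0.35), Egr1 (1.97) and Dusp1 (0.08). Genotype plus form turned, in the same order, Junb (-1.19), Ier2 (-0.97), Klf10 (0.02), Myc (0.10), Nfkbia (-0.81), Socs3 (-2.65), Nfkbiz (-1.47) and Il1b (-2.48), Fosb (-5.42), Fosb (-0.28), Junb (0.27), Nr4a1 (-0.48) and Dusp1 (-0.63), and Egr1 (0.76), and it turned the difference between forms in VLDLR_KO for Junb (0.65). Without both digit-after WT libraries, VLDLR_KO against WT in the digit-after libraries turned for Junb (0.31), Egr1 (0.51, also against the digit-before value), Ier2 (0.66), Csrnp1 (0.24), Klf2 (0.59), Klf10 (-0.44), Per1 (0.18), Btg2 (0.07), Ier3 (0.84), Socs3 (1.12), Nfkbiz (0.72), Cish (0.41), Dusp2 (0.13), Nfkbia (1.21), Cxcl1 (1.36), Cxcl2 (1.23), Il1b (2.37), Tnf (0.20) and Hspd1 (-0.04), and ROBO4_KO against WT turned for Junb (0.15) in the digit-after and Fosb (-0.33) in the digit-before libraries. With single libraries left out, VLDLR_KO against ROBO4_KO in the digit-after libraries ranged from -0.22 to 0.03 for Junb, turning without ROBO4_KO replicate 3 (0.02) and without VLDLR_KO replicate 3 (0.03), and from -0.13 to 0.06 for Jun, turning without VLDLR_KO replicate 3. The VLDLR_KO effect on Atf3 differing between forms ranged from -0.01 without VLDLR_KO replicate 4 to 0.45. Of the values of single genes, 2466 kept direction and side of the threshold, 265 lost the call, 47 gained one and 70 turned.

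The digit in the code was also used as a replicate block within each form. Same-digit libraries of different genotypes had correlated deviations of -0.441 to 0.253 over 12 pairs, with 4 over 0.1. Pairs with other digits had -0.397 to 0.459 over 25 pairs, 10 of them over 0.1. In sets of 2 libraries the deviations mirror each other, so few of these values are independent. The check therefore cannot tell whether the digits share more than a number. The block gave 4 calls for VLDLR_KO against WT, 0 for ROBO4_KO against WT and 1 for VLDLR_KO against ROBO4_KO. In the same order, 7, 9 and 1 of the 10 had an unadjusted edgeR p under 0.05 with the block. Under the block the digit-before values were -1.14 for Junb, -0.85 for Ier2, 0.13 for Myc, -0.69 for Nfkbia, -2.35 for Socs3, -1.44 for Nfkbiz and -1.94 for Il1b (VLDLR_KO against WT), -4.95 for Fosb (ROBO4_KO against WT) and 1.27 for Egr1 (VLDLR_KO against ROBO4_KO), and the digit-after values -0.33 for Fosb, 0.12 for Junb, -0.29 for Nr4a1 and -0.39 for Dusp1 (VLDLR_KO against ROBO4_KO) and 0 for Klf10 (VLDLR_KO against WT). Depth limits Fosb most, at 2 counts in its lowest library.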

Other observations

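Heat shock genes were looked at as a further stress list. Of 12 tested, 1 was lower and 1 higher in digit-after VLDLR_KO than in WT, a share near the 13.4% called over all tested genes, and edgeR called 0 between ROBO4_KO and WT in either form. There DESeq2 also called 0, while 1 digit-after and 0 digit-before genes had an unadjusted p under 0.05. Hspa1a, the inducible heat shock protein gene, averaged 1.54 ± 0.991 CPM in digit-after VLDLR_KO and 2.42 ± 1.37 CPM in digit-after ROBO4_KO, against 6.80 ± 3.13 CPM in digit-after WT libraries, and its VLDLR_KO log2 fold change was -2.14 ± 0.51 (adjusted p = 0.0154). That call did not hold without WT replicate 2 (adjusted p = 0.21) or without VLDLR_KO replicate 5 (adjusted p = 0.0522). The mitochondrial chaperone gene Hspd1 was higher in VLDLR_KO, at 0.44 ± 0.11 (adjusted p = 0.0201), a call lost when any 1 of 4 libraries was left out. In the digit-before libraries Hspa1a (-1.53 ± 0.55, adjusted p = 0.0481) and Hsp90ab1 (-0.29 ± 0.08, adjusted p = 0.0182) were lower in VLDLR_KO. The digit-before Hspa1a call was lost when any 1 of 12 libraries was left out, and the Hsp90ab1 call without VLDLR_KO replicate 2 (adjusted p = 0.0661) or WT replicate 4 (adjusted p = 0.0756).

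Transcript counts were split for Nr4a1 and Fosb, while the other 8 genes had 1 transcript each. The curated transcript of Nr4a1 took 56.5% of 180 estimated counts in digit-after VLDLR_KO and 65.1% of 139 in digit-after ROBO4_KO, against 79.6% of 2742 in digit-after WT libraries. In digit-before WT libraries it took 30.5% of 198, and 1 predicted transcript took 58.2%. For Fosb the curated transcript took 83.2% of 3995 counts in digit-after WT libraries. These shares are estimates of the authors' quantifier over the summed libraries, and no test was run on them.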
